A study of Mus musculus with 6 samples.

Results

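Metallothioneins are small, cysteine-rich proteins that bind zinc and copper and buffer the free metal in a cell. The transcription factor MTF-1, encoded by Mtf1, senses zinc and switches on the metallothionein genes Mt1 and Mt2 together with Slc30a1, whose product ZnT1 moves zinc out of the cell. In T cells, zinc and metallothioneins change with activation, and Mt1 and Mt2 are also induced by glucocorticoids and oxidative stress. The genes described here are Mt1, Mt2, Mt3, the metallothionein best known from brain, Mtf1 and Slc30a1. They are 5 of the 19752 genes measured. Each was represented by 1 probe set that names no other gene. They were chosen by their log2 differences between pancreas and spleen on these same arrays, so those differences are given as a description, with no test.

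The arrays measured total RNA of regulatory T (Treg) cells from female, prediabetic NOD mice, a strain that develops autoimmune diabetes, at 10 weeks of age. There were 3 arrays of pancreatic Treg cells and 3 of splenic Treg cells. All animals had the genetic background labelled NOD NRB_SFB+ and carried the Foxp3-ires-gfp reporter, which couples green fluorescent protein to Foxp3, the transcription factor that defines Treg cells, and no treatment is named. Live (DAPI-) cells that were CD4+, TCRb+, CD45+ and GFP+ were sorted in 2 rounds from both tissues, and their RNA was amplified before hybridisation to Affymetrix Mouse Gene 1.0 ST arrays. The labels do not say whether an array holds 1 mouse or a pool, so a p-value here reflects no more than how far these samples spread, possibly for technical reasons.

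Values are log2 intensities of the authors' linear RMA values. The median intensity of an array lay between 82.0 and 92.0. Precision is limited by there being 3 arrays per tissue. A level of 63.9, the 95th percentile of 1194 olfactory and vomeronasal receptor genes, was taken as background. Foxp3, the gene behind the sort, had log2 intensities of 11.47, 11.66 and 11.33 in pancreas and 11.15, 11.74 and 11.67 in spleen. Of 9 measured genes of the sorted cells, among them Cd4 and the CD45 gene Ptprc, 0 passed the test described below (1 at an unadjusted limma p under 0.05). The arrays differed in the width of their log2 distribution, with an interquartile range of 2.23 to 3.07 in pancreas and 2.49 to 3.00 in spleen.

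The promoter sequences of Mt2, Mt1 and Slc30a1 are shown because these are the classical MTF-1 target genes, whose values in the tissues are given further on. Each line gives the 250 bases before the RefSeq transcription start (GRCm38.p6, plus strand, 5′ to 3′). Capitals mark matches to the core of the metal response element (MRE) that MTF-1 binds, searched as TGCACNC and TGCGCNC on both strands. The stretch of Mt2 is chr8:94172368-94172617, that of Mt1 chr8:94178839-94179088, and that of Slc30a1 chr1:191906531-191906780.
Mt2: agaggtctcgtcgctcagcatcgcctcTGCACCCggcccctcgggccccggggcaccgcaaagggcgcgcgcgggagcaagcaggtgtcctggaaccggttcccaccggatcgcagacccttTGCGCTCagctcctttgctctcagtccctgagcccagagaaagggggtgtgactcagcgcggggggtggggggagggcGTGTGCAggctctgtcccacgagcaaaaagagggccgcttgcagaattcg
Mt1: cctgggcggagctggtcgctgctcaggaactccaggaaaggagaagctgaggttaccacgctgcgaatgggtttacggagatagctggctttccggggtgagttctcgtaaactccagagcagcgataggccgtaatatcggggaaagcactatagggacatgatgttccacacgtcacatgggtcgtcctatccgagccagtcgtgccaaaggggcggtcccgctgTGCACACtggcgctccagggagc
Slc30a1: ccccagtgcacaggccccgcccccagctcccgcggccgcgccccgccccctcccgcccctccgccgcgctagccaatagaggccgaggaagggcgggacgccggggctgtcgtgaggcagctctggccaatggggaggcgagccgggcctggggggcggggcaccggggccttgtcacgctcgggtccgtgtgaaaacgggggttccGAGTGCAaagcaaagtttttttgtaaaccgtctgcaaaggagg

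In the full windows of 250 bases before and 50 after the start, Mt2 held 4 MRE cores, Mt1 held 3, Slc30a1 held 2, and Mt3 and the neighbouring metallothionein gene Mt4 held 1 each. Mtf1 itself held 0. Of all 32817 RefSeq windows of this length, 25.7% held at least 1 core, 7.12% at least 2, 1.97% at least 3 and 0.518% at least 4. The cores of Mt2 began at -223, -128, -50 and 5 bases from the start. Those of Mt1 began at -23, 3 and 21 bases, and those of Slc30a1 at -43 and 31 bases. These counts and positions depend on the 1 RefSeq start used for each gene, and bases outside the windows were not searched.

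Beside the MRE, the antioxidant response element was searched as TGACNNNGC, the AP-1 site as TGACTCA and TGAGTCA, and the glucocorticoid response element as AGAACA, then 3 free bases, then TGTTCT, on both strands. Mt2 had an AP-1 match at -79 bases, and the antioxidant match at the same position shares its letters. Slc30a1 had an antioxidant match at -82 bases, and Mt1 and Mt3 matched neither. AP-1 matches were in 5.20% of all windows, antioxidant matches in 12.4% and glucocorticoid matches in 0.00914%, with 0 of the last in the windows of these genes. For so rare a pattern 0 matches were likely beforehand, and elements outside the windows were not searched. A match is a run of letters, and no binding was measured.

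**Figure D1:**
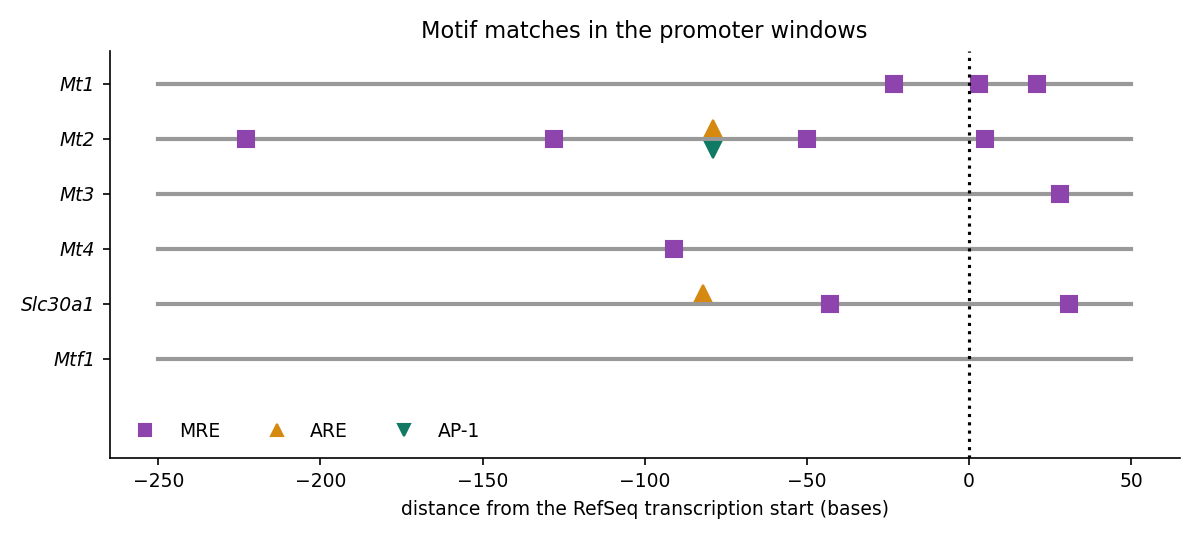
Positions of matches to the MRE (squares), antioxidant response element (ARE, upward triangles) and AP-1 site (downward triangles), each placed at the first base of the match, along the promoter windows of 6 genes, with the distance from the RefSeq start in bases on the horizontal axis and the start as a dotted line. Mt2 has 4 MRE cores spread over the window and Mt1 has 3 near the RefSeq start used.

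Mt2 had the widest gap between the tissues. Its log2 intensity was 8.24, 8.33 and 8.22 in pancreas, against 6.10, 6.79 and 6.20 in spleen. All 3 pancreas arrays lay close together and above every spleen array. Among the spleen arrays, array 2 was the highest. In linear terms the intensities were 303, 322 and 298 in pancreas and 68.5, 111 and 73.6 in spleen. The means were 8.26 ± 0.06 in pancreas and 6.36 ± 0.37 in spleen (SD, n = 3 each), a log2 difference of 1.90 ± 0.20 (SE), or 3.73-fold. Among the differences of all 19752 genes, ordered with the most in favour of pancreas first, Mt2 was at rank 41. The lowest spleen array was 0.10 above background on the log2 scale, so part of the gap is measured against a level near the detection limit. In bulk RNA, more cells that express a gene and more RNA per cell cannot be told apart.

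Mt1 lay next to Mt2 on chromosome 8, with its RefSeq start 6471 bases further along, and differed much less. Its log2 intensity was 6.65, 6.85 and 6.81 in pancreas, against 6.47, 6.27 and 6.40 in spleen. The arrays of the tissues did not overlap, but the gap between the lowest pancreas array and the highest spleen array was small. The means were 6.77 ± 0.11 and 6.38 ± 0.10 (SD, n = 3 each), a log2 difference of 0.38 ± 0.16 (SE), or 1.31-fold, at rank 894 among all genes. The difference of Mt2 exceeded that of Mt1 by 1.52 on the log2 scale. Mt1 and Mt2 encode closely related proteins, and whether their probe sets share signal was not tested.

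Mt3, the third metallothionein, starts 20011 bases before Mt2 in the same cluster. Its log2 intensity was 7.50, 7.87 and 8.23 in pancreas, against 8.34, 7.92 and 7.77 in spleen, and the arrays of the tissues overlapped. The means were 7.87 ± 0.36 and 8.01 ± 0.29 (SD, n = 3 each), a log2 difference of -0.14 ± 0.22 (SE). The sign turned without pancreas array 1 (0.05) and without spleen array 1 (0.03). Mt4, the epithelial metallothionein, was below background on all 6 arrays.

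The signal of Mt3 ran with the width of the array. It was highest on spleen array 1 and pancreas array 3, the narrowest arrays, and lowest on pancreas array 1, the widest. Over the 6 arrays its Pearson correlation with the interquartile range was -0.90, as a description of these arrays. After quantile normalization the correlation was -0.97, with 7.37, 7.84 and 8.53 in pancreas and 8.43, 7.87 and 7.63 in spleen. The same correlation on the deposited values was -0.11 for Mt2, -0.38 for Mt1, 0.29 for Mtf1 and 0.14 for Slc30a1. After quantile normalization it was -0.21 for Mt2, -0.38 for Mt1, -0.74 for Mtf1 and -0.27 for Slc30a1.

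**Figure D2:**
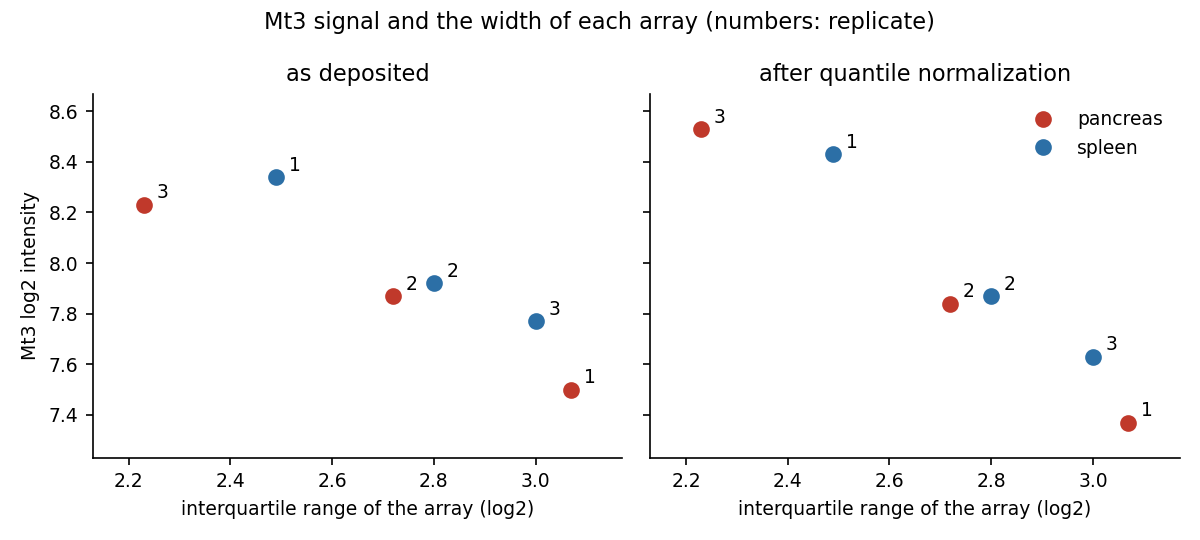
Mt3 log2 intensity (vertical axis) against the interquartile range of each array on the log2 scale (horizontal axis), for the deposited values and after quantile normalization, with 1 point per array and the replicate number beside it. Mt3 falls from narrow to wide arrays in both tissues, with pancreas array 3 and spleen array 1 at the top left of each panel.

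Mtf1 and Slc30a1 did not follow Mt2. Mtf1 had log2 intensities of 8.35, 8.62 and 8.28 in pancreas and 8.54, 8.63 and 8.54 in spleen. The arrays overlapped, with a log2 difference of -0.15 ± 0.16 (SE) between means of 8.42 ± 0.18 and 8.57 ± 0.05 (SD, n = 3 each). Slc30a1 had 7.04, 7.17 and 6.97 in pancreas and 7.49, 7.08 and 7.44 in spleen. Pancreas array 2 lay above spleen array 2, so the tissues overlapped here too. The means were 7.06 ± 0.10 and 7.33 ± 0.22 (SD, n = 3 each), a log2 difference of -0.28 ± 0.17 (SE). With array weights the difference was -0.04 for Mtf1 and -0.05 for Slc30a1.

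**Figure D3:**
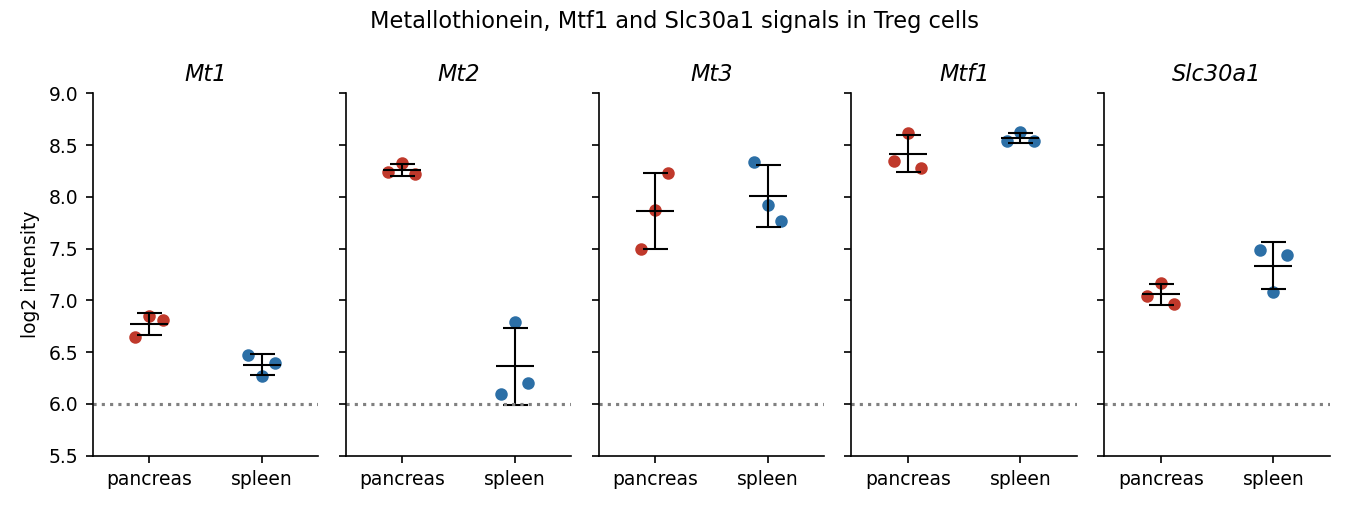
Log2 intensity (vertical axis) of the 5 genes in pancreas (left in each panel) and spleen, with 1 point per array and the mean ± SD as black bars (n = 3 each). The dotted line is the background level, and Mt2 is the gene whose pancreas arrays (8.22 to 8.33) stand furthest above its spleen arrays (6.10 to 6.79).

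Over the 5 genes, the pancreas mean was higher for 2 and lower for 3. The median log2 difference was -0.14, beside 0.00 over all genes. The arrays of the tissues did not overlap for 2 of the 5 genes, Mt1 and Mt2, both with the higher values in pancreas. Over all genes this held for 10.4%, made up of 4.57% with pancreas higher and 5.81% with pancreas lower. Since this contrast was used to choose the genes, nothing is read from that count. All 5 genes were above background on all 6 arrays. With background set at the 99th percentile of the receptor genes, an intensity of 112, 3 of 5 were, since all 3 spleen arrays of Mt2 and all but 2 arrays of Mt1 then lay below it. Of all 19752 genes, 11698 had a mean over the arrays above the 95th percentile level. The islet gene Ppy and the collagen gene Col1a1 were above even the 99th percentile level on all 6 arrays. A signal above these levels therefore does not by itself show that the sorted cells express a gene.

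The members were also compared for how they moved among the arrays of 1 tissue. The genes were chosen on these same arrays, so these values may not be independent of the choice. Over the 6 arrays Mt1 and Mt2 had a Pearson r of 0.83, which includes the gap between the tissues. Taken as deviations from each tissue's mean, their r was -0.61, and -0.24 after quantile normalization. Array 2 was the highest spleen array for Mt2 and the lowest for Mt1, whereas in pancreas array 2 was the highest for both. Mt2 and Slc30a1 had an r of -0.81 over the arrays and of -0.83 in deviations (-0.67 after quantile normalization). The opposed order was in spleen, where array 2 was the highest for Mt2 and the lowest for Slc30a1, while the 3 pancreas arrays had the same order for both genes. Mt1 and Slc30a1 had an r of -0.43 over the arrays but of 0.71 in deviations (0.78 after quantile normalization). With 3 arrays per tissue these values describe the arrays and carry no test.

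The remaining zinc transporters asked whether zinc export or import differed more broadly. They were tested with limma, fitted across all genes with Benjamini-Hochberg adjustment and a threshold of 0.05, and 0.678% of all genes passed (0.547% higher and 0.132% lower in pancreas). Of the 9 other zinc exporter genes of the Slc30 family, 0 passed (1 at an unadjusted limma p under 0.05), 8 had a lower mean in pancreas, and the median log2 difference was -0.19. The 1 at the unadjusted p, Slc30a4 (log2 difference -0.46), was among 3 of the 9 that were below background on all arrays. Of the 14 zinc importer genes of the Slc39 family, 0 passed (1 at an unadjusted limma p under 0.05), 10 had a lower mean in pancreas, and the median was -0.05. Of these 14, 1 was below background on all arrays. No difference among these 23 genes exceeded 0.46 on the log2 scale in size.

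Slc30a7, an exporter that loads zinc into the Golgi, had 9.44, 9.15 and 8.74 in pancreas and 9.62, 9.44 and 9.40 in spleen (log2 difference -0.38 ± 0.20 SE, limma adjusted p = 0.874). Slc30a5, which loads zinc into the secretory pathway, had a log2 difference of -0.35 ± 0.21 (SE, limma adjusted p = 0.977). Both were below their spleen means on all 3 pancreas arrays, and furthest below on array 3, the narrowest. Slc39a4, an importer at the cell surface, had the largest positive difference, at 7.64 ± 0.32 in pancreas and 7.19 ± 0.23 in spleen (SD, n = 3 each, limma adjusted p = 0.728).

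The other importers known from T cells ran both ways. Slc39a8, which lets zinc out of lysosomes in activated human T cells, had 6.92, 6.96 and 6.78 in pancreas and 6.79, 6.93 and 6.90 in spleen. Slc39a6, a surface importer, had a log2 difference of 0.29 ± 0.21 (SE), and Slc39a10, which MTF-1 represses, one of -0.29 ± 0.19 (SE). None of these 3 passed the test. Slc30a8, the zinc transporter of insulin granules, was below background on all 6 arrays.

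**Figure D4:**
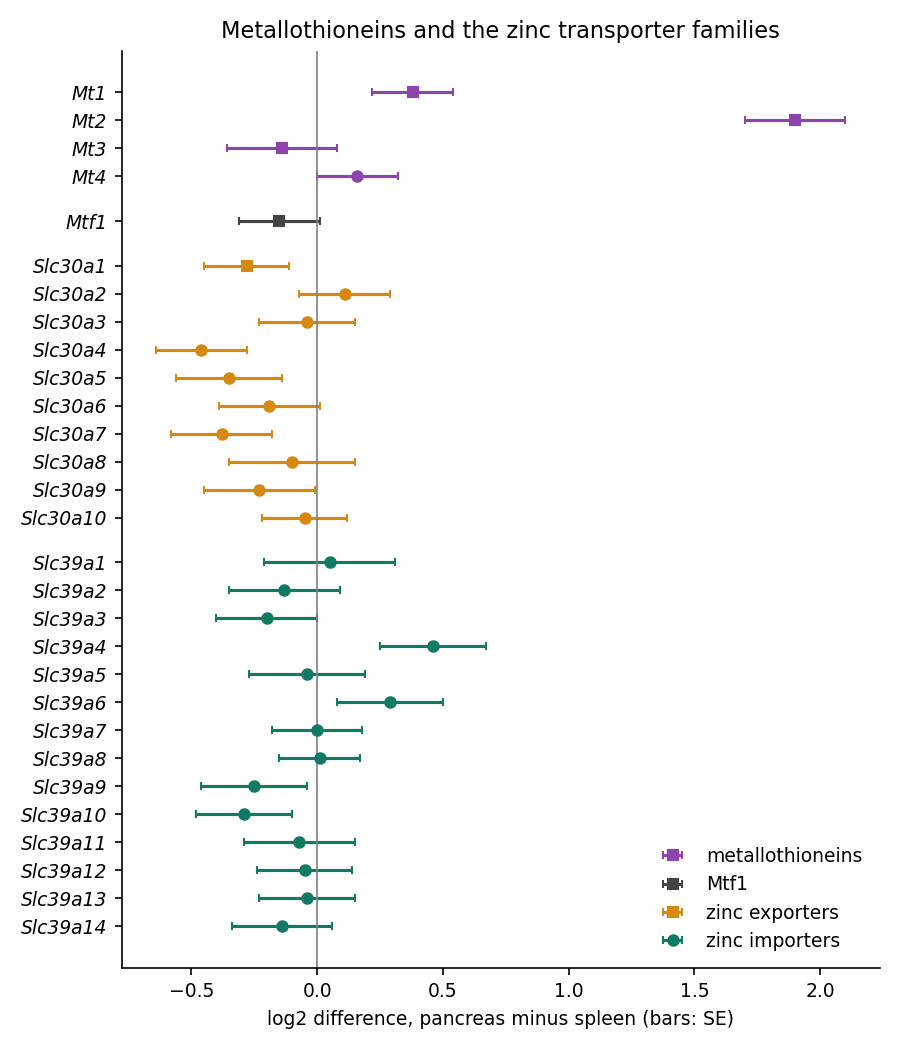
Log2 difference, pancreas minus spleen (horizontal axis, bars are SE from the limma fit), for the metallothioneins, Mtf1 and the zinc transporters, with squares for the 5 genes described here and circles for the others. Mt2 stands alone at 1.90, and no transporter is further than 0.46 from 0.

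Further lists covered metals and the stress signals that induce metallothioneins. Among 11 targets and partners of MTF-1, 0 passed the test (0 at an unadjusted limma p under 0.05), with a median log2 difference of -0.22. Of these 11, 2 were below background on all arrays. Ndrg1, a stress-responsive gene, was at -0.38 (limma adjusted p = 0.814), and Gclc, which encodes the catalytic subunit of the rate-limiting enzyme of glutathione synthesis, at -0.35 (limma adjusted p = 0.926). Of 11 copper genes 0 passed (0 at an unadjusted limma p under 0.05). Their median log2 difference was 0.00, 6 had a higher mean in pancreas, and 2 were below background on all arrays. The 2 above background with the largest differences in size were Slc31a2 at -0.33 and the copper pump gene Atp7a at -0.29. Of 19 genes of the Nrf2 and glutathione programme 0 passed (2 at an unadjusted limma p under 0.05), with a median of 0.01. Of these 19, 2 were below background on all arrays. The stress enzyme gene Hmox1 had 6.69, 6.78 and 6.26 in pancreas and 7.27, 7.06 and 7.11 in spleen (log2 difference -0.57 ± 0.18 SE, limma adjusted p = 0.364), while the antioxidant gene Srxn1 was at 0.41 ± 0.17 (SE, limma adjusted p = 0.671).

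In all, 2 of 88 genes on these lists passed, or 2.27%, beside 0.678% of all genes. These shares are over unlike sets, since most genes on each list had a mean above background, against 11698 of all 19752. With genes at or below background left out, 189 of 11698 genes passed, among them the same 2 listed genes. No excess is read from the 2 shares. Cybrd1, a ferric reductase gene and 1 of 13 iron genes, fell, with 7.20, 6.67 and 6.68 in pancreas and 7.95, 8.73 and 8.64 in spleen (log2 difference -1.59 ± 0.24 SE, limma adjusted p = 0.0157). Dusp1, a phosphatase gene that glucocorticoids and many other signals induce, rose as 1 of 13 genes on the glucocorticoid list, with 11.63, 11.54 and 11.21 in pancreas and 9.46, 10.53 and 10.31 in spleen (1.36 ± 0.26 SE, limma adjusted p = 0.0495). That list also holds the glucocorticoid receptor gene Nr3c1 (log2 difference -0.10), and 1 of the 13 was below background on all arrays. Of the 13 genes, 8 had a higher mean in pancreas, the median log2 difference was 0.12, and 4 were at an unadjusted limma p under 0.05. Beside Dusp1 these 4 were Zfp36 (log2 difference 0.39), Sgk1 (0.37) and Tsc22d3, the glucocorticoid-induced leucine zipper gene (-0.63), none of which passed after adjustment. The call of Cybrd1 ended without pancreas array 2 (limma adjusted p = 0.0777) or spleen array 2 (0.0670), with arrays centred on their medians (0.0657) and with values under background raised to it (0.414). That of Dusp1 ended without pancreas array 1 (limma adjusted p = 0.113) or 2 (0.209), without spleen array 1 (0.0764) or 3 (0.0791), with arrays centred (0.145) or also scaled (0.116), with values under background raised to it (0.575) and with the marker genes of other cells left out (0.0546). Raising low values to background left the differences at -1.59 and 1.36, since neither gene had a value under it. The calls were lost there through the other genes of the shared fit.

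Genes of pancreatic acinar cells, which make digestive enzymes and also express metallothioneins, moved with the tissue on the same arrays. Of 14 measured acinar markers 13 rose, 0 were below background on all arrays, and their summed intensity was 15846 to 32845 in pancreas and 1173 to 3087 in spleen. Ctrb1, the chymotrypsinogen gene, had 11.87, 12.57 and 11.50 in pancreas and 6.46, 6.47 and 9.31 in spleen. Clps, the colipase gene, differed by 4.37 and Cpa1, a carboxypeptidase gene, by 4.33 on the log2 scale. The acinar sum correlated over the 6 arrays at 0.92 with Mt2 and at 0.90 with Mt1. Taken as deviations from each tissue's mean, r was -0.26 for Mt2 and 0.25 for Mt1. In pancreas, array 2 had the highest acinar sum and the highest Mt1 and Mt2, and the acinar sum and Mt2 had the same order over the 3 arrays. In spleen, array 3 had the highest acinar sum, while Mt2 was highest on array 2 and Mt1 on array 1. The part of acinar RNA in the signals of Mt1 and Mt2 was not tested. Slc30a2, the zinc transporter of acinar zymogen granules, was below background on all 6 arrays.

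**Figure D5:**
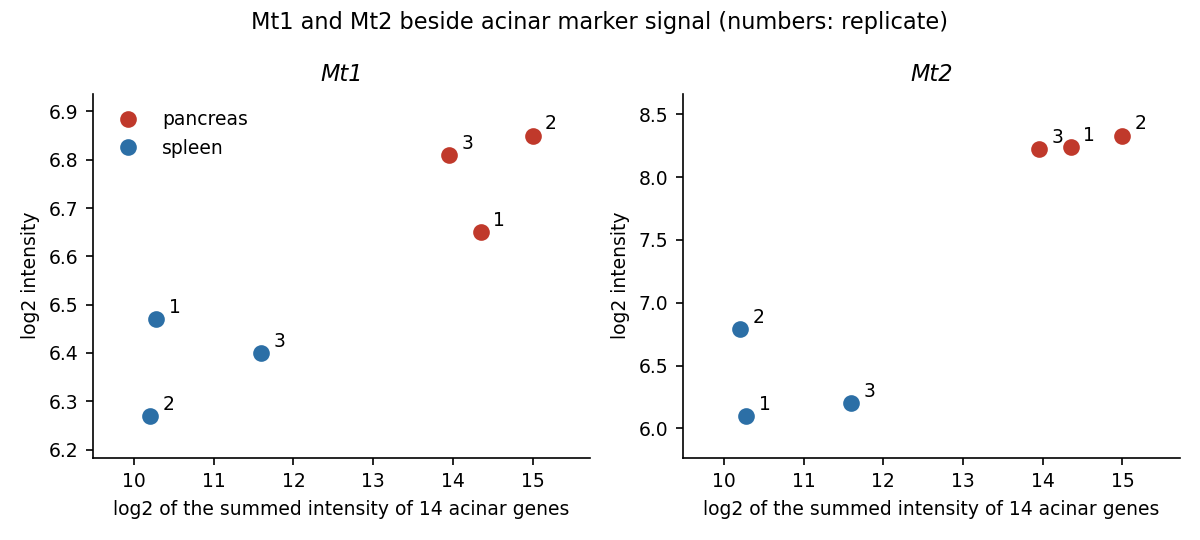
Log2 intensity of Mt1 (left) and Mt2 (right) against the log2 of the summed intensity of 14 acinar genes, with 1 point per array and the replicate number beside it. The tissues separate on both axes. In pancreas array 2 is the highest on both axes for both genes, and in spleen the highest acinar sum is on array 3, the highest Mt2 on array 2 and the highest Mt1 on array 1.

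Markers of other cells had smaller differences, up to 2.08 on the log2 scale, beside a median of 3.73 for the acinar markers. Of 9 B cell markers 1 rose, Cd79a, but all 9 had a higher mean in pancreas at an unadjusted limma p under 0.05. When single arrays were dropped, Cd79a passed in 2 of 6 fits (limma adjusted p up to 0.142). The median log2 difference of the 9 markers was 0.81, and their summed intensity was 886 to 1943 in pancreas and 617 to 720 in spleen. Of 15 macrophage and dendritic cell markers 1 rose, Lyz2, with sums of 1161 to 1186 in pancreas and 869 to 1006 in spleen, and 8 of the 15, among them Csf1r, Adgre1 and Cd14, were below background on all 6 arrays. Of 12 islet markers 0 passed the limma test (1 at an unadjusted p under 0.05), with sums of 678 to 940 in pancreas and 709 to 841 in spleen. Of 14 stromal, endothelial and duct markers 0 passed (1 at an unadjusted limma p under 0.05), with sums of 1354 to 1468 in pancreas and 1620 to 1728 in spleen. The part of these cells in the signals of the 5 genes was not tested.

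Finally, the genes with the most similar pattern were found among 1663 genes by Pearson r over the 6 arrays. These genes had a mean over all 6 arrays above background and ranged by at least 1 on the log2 scale, so a gene could enter through its pancreas arrays alone. This measure includes the gap between the tissues and the shared width of the arrays. The genes most like Mt2 were the linker histone gene H1f1 (r = 0.994), the co-inhibitory receptor gene Tigit (0.991), the interferon gamma gene Ifng (0.987), the inhibitory receptor gene Lilrb4a (0.985) and the histone chaperone gene Asf1b (0.985). In deviations from the tissue means these genes had an r of 0.64 to 0.88 with Mt2. They were picked by r over the same arrays, so their r in deviations is no separate evidence of likeness. Tigit, for example, had 11.83, 11.84 and 11.94 in pancreas and ran between 10.80 and 11.18 in spleen, with its highest spleen value on array 2, as for Mt2. In pancreas Tigit was highest on array 3, where Mt2 was lowest (8.22).

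The genes most like Mt1 were others. They were Tmem97 (r = 0.975), a sterol-related membrane protein gene, the trypsin genes Try5 (0.932) and Try10 (0.930), the zymogen granule gene Zg16 (0.927) and the lysozyme gene Lyz2 (0.926). Zg16 and Lyz2 also stand on the acinar and macrophage lists. In spleen Zg16 and Try10 were above background on 1 array each and Lyz2 on 2. In deviations r with Mt1 was 0.84 for Tmem97 and 0.38 to 0.50 for the other 4, again after a choice by r over the same arrays. For Slc30a1 the closest genes were Zfp113 (0.869), Pik3ip1 (0.851), Rnf130 (0.851), Igfbp4 (0.844) and Txnip (0.830), all with lower means in pancreas. For Mtf1 they were Naf1 (0.815), Pced1b (0.815), Trav14-1 (0.807), Jmy (0.784) and Tulp4 (0.781). After quantile normalization 4 of the 5 genes of Mt1, 2 of Mt2, 1 of Slc30a1 and 0 of Mtf1 were still among the closest 5.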

How the data were processed

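Treg cells of pancreas and spleen were measured on 6 arrays, grouped by tissue from the labels. Per the submitters' processing notes, Affymetrix Power Tools and RMA were used to make the deposited intensity values, which are linear. The genome build and how the arrays were normalized together are not given in the sources used here. From the deposited values log2 was taken, without pseudocount or filter. Probe sets naming exactly 1 gene were used (21425 of 24922), and for 921 genes with several the one with the highest mean, which left 19752 genes; 21347 probe sets matched RefSeq by gene ID. The tissues were compared by lmFit and eBayes of limma 3.58.1 (R 4.3.3), two-sided, on all 6 arrays without covariates and Benjamini-Hochberg adjustment over all genes; the fit was tested on simulated data. Promoter windows are from RefSeq (GRCm38.p6), which held all 5 genes. The array annotation names no build, so no other coordinates were used.

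The 5 genes, the gene lists and the tests were chosen with earlier results of these data known. Genes were named by rule: on each pathway list those past the threshold (up to 4) or else the 2 above background with the largest difference, a few fixed transporters and sorting genes, the 3 largest of each marker list, and the 5 genes with the highest r to Mt1, Mt2, Mtf1 and Slc30a1 above background. Tsc22d3, Zfp36, Sgk1, Nr3c1, Slc30a2, Slc30a4, Csf1r, Adgre1 and Cd14 were named after their values were seen. Array weights used the gene-by-gene method, since the default did not converge. Alternatives covered normalization, background, dim genes, probe sets, variance model, weights, marker genes, the replicate block and each array left out.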

Additional observations from a re-analysis of the deposited data

How the results depend on the processing

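The log2 differences of Mt2 (1.70 to 1.97 over 7 alternatives, 1.77 to 2.11 with 1 array left out) and Mt1 (0.33 to 0.45 with 1 array left out) kept their direction in every setting run. Much of this was fixed beforehand. For both genes every pancreas array lay above every spleen array, so leaving out 1 array could not turn the sign. The replicate block, the mean of several probe sets and the floor at background could not change these 2 differences. With array weights Mt1 was at 0.51 and Slc30a1 at -0.05, and the cause was not tested. Slc30a1 ran from -0.40 to -0.20 with 1 array left out and Mtf1 from -0.26 to -0.08. Mt3 ran from -0.32 to 0.05 with 1 array left out, above 0 without pancreas array 1 (0.05) or spleen array 1 (0.03). The count of all genes past the test, 134, was 212 after quantile normalization, 64 with each array centred on its median, 66 with arrays also scaled to 1 interquartile range, 3 with lower values raised to background, 1684 with array weights, and 64 to 262 with 1 array left out. Of the pathway genes, 2 passed as reported, 0 with arrays centred or values floored at background, 1 with arrays scaled or marker genes of other cells left out, 9 with array weights, and 0 to 2 with 1 array left out. Flooring changed no value of the 2 genes that passed, Cybrd1 and Dusp1. The labels do not say what a replicate number marks, and deviations of arrays with the same number correlated at -0.18, 0.05 and -0.63. Array widths ran in opposite order over the numbers, at 3.07, 2.72 and 2.23 in pancreas and 2.49, 2.80 and 3.00 in spleen. These correlations therefore cannot decide whether the numbers pair the arrays. With the replicate number as a block, 132 genes passed, and the pathway count stayed at 2. The r of Mt1 and Mt2 was 0.85 after quantile normalization (-0.24 in deviations from the tissue means, against -0.61 on the deposited values), and 7 of the 20 genes named for a similar pattern were still among the closest. With background at the 99th percentile, chosen after seeing the data, 3 of the 5 genes were above it on all arrays. Signal over background limits Mt1, and Mt2 in spleen.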

Other observations

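The metallothionein genes lie on chromosome 8 in the order Mt4, Mt3, Mt2, Mt1. The 3 measured protein-coding genes on each side of this cluster, chosen after the values of the cluster were seen, were compared in the same limma fit, and 0 of the 6 passed (1 at an unadjusted p under 0.05). Before the cluster, Bbs2, a ciliary trafficking gene, had log2 intensities of 6.53, 6.09 and 6.17 in pancreas and 6.53, 6.67 and 6.85 in spleen (log2 difference -0.42 ± 0.18 SE, limma adjusted p = 0.680), Ogfod1 was at -0.22 and Nudt21 at 0.33. After it, the nuclear pore gene Nup93 had 8.17, 8.07 and 7.85 in pancreas and 7.85, 8.04 and 7.96 in spleen, a log2 difference of 0.08 ± 0.16 (SE). Slc12a3 was at 0.01 and the endoplasmic reticulum stress gene Herpud1 at 0.10. The differences of these 6 genes were at most 0.42 in size, beside 1.90 for Mt2.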
